A study of Mus musculus with 2 samples.

Results

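Connexins are the subunits of gap junctions, and 9 of their genes were read in cells of the mouse otocyst, the epithelial vesicle that becomes the inner ear. The 9 genes, Gja1, Gja4, Gja5, Gjb1, Gjb2, Gjb5, Gjb6, Gjc1 and Gjd2, were taken by name from the 18194 genes that have a probe set naming 1 gene alone. They had 17 such probe sets of 34958. Otocysts were dissected from mouse embryos at stage E10.5 that were heterozygous for the transgene Tg(ETAR-EGFP)14Imeg, which is named for the endothelin receptor ETAR and makes cells fluoresce with EGFP. Cells freed with trypsin were sorted by fluorescence. The EGFP-positive population, called positive cells, comes, per the labels, mainly from the ventral and dorsomedial otocyst, and the EGFP-negative population, called negative cells, includes the dorsolateral otocyst, where EGFP is absent. Both populations carry the transgene, no animal without it was used here, and the sources used here do not say how many embryos were pooled. Each population was measured on 1 Affymetrix array, so there is no replicate, no test and no spread between samples, and every value describes these 2 libraries. The signal is a MAS5 intensity in arbitrary units.

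A connexin protein crosses the membrane several times, assembles with others into a ring called a connexon, and docks with the connexon of a neighbouring cell to form a channel for ions, inositol trisphosphate and other small molecules. An undocked connexon can also act as a hemichannel that releases ATP. In the mature cochlea, connexin 26 (Gjb2) and connexin 30 (Gjb6) join the supporting cells and fibrocytes into networks, and loss of Gjb2 function is a known cause of deafness. Connexin 43 (Gja1) is widespread in embryonic epithelium, neural tissue and mesenchyme. Connexin 45 (Gjc1) is typical of early embryonic and cardiovascular tissue. Connexins 37 (Gja4) and 40 (Gja5) are known from arterial endothelium, connexin 36 (Gjd2) from electrical synapses of neurons, connexin 32 (Gjb1) from liver and Schwann cells, and Gjb5 from skin and placenta.

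Of the 9 genes, 3 had signals above the floor in both libraries (Gja1, Gjb2 and Gjc1), 2 in the negative library alone (Gja4 and Gjd2), and 4 in neither (Gja5, Gjb1, Gjb5 and Gjb6). Over all 18194 genes these shares were 64.2%, 5.23% and 26.6%. The floor is each array's 40th percentile of signal, 10.4 in the positive and 12.4 in the negative library. As a guide to background, 27 probe sets for bacterial transcripts, which should find no target, read at most 12.3 and 9.0. By its brightest probe set, no connexin gene was at least 2-fold higher in positive cells, and 1, Gja4, was at least 2-fold higher in negative cells. Over all 13087 genes with a ratio, 2.96% were at least 2-fold higher in positive cells and 7.79% in negative cells. In numbers these were 388 and 1019 genes, a split that moved with the scaling, to 503 and 822 with quantile-normalized arrays, 225 and 1442 with hybridisation controls as the zero point, and 22 and 10558 with otic epithelium genes as the zero point. The median log2 ratio, EGFP-positive over EGFP-negative, was 0.27 over the 5 connexin genes with a ratio and 0.01 over all genes. The connexin median is the ratio of the brighter Gjc1 probe set, and 2 of the 5 values are bounds. With the median over probe sets for each gene it was -0.14.

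The DNA just upstream of the annotated starts of Gja1, Gjb2 and Gja4 is shown because Gja1 and Gjb2 were above the floor in both libraries with every probe set on the side of positive cells, and Gja4 was the 1 connexin gene past 2-fold. The RefSeq promoter table, in build GRCm38.p6, held 8 of the 9 genes, all but Gjc1. Each sequence is the 250 bases before the start, 5′ to 3′ on the strand of the gene. For Gja1 this is chr10:56377050-56377299 on the + strand, for Gjb2 chr14:57104703-57104952 on the - strand, and for Gja4 chr4:127314040-127314289 on the - strand. Capitals mark matches on either strand to an AP-1 element (TGANTCA), a GC box (GGGCGG) or a TATA box (TATAAA).
Gja1: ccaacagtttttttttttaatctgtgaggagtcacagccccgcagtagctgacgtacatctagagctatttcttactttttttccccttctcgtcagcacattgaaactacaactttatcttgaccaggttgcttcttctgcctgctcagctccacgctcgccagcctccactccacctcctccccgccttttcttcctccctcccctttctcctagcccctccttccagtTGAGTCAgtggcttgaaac
Gjb2: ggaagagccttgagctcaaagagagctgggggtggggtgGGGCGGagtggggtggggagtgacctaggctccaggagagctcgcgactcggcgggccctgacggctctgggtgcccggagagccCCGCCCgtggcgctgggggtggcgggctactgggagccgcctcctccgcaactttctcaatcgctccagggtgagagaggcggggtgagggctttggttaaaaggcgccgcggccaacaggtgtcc
Gja4: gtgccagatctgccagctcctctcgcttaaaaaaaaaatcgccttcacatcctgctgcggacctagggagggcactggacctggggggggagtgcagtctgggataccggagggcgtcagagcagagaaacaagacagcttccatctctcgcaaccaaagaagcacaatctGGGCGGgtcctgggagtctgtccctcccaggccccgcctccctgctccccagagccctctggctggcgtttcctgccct

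These 3 windows differed in composition. The Gja1 window was 50% G or C with 6 CG dinucleotides and held 1 AP-1 match, TGAGTCA, from 19 to 13 bases before the start, overlapping by its first bases an E-box match (CANNTG) from 23 to 18 bases before the start. An AP-1 match was present in 6.75% of 32851 promoter windows of the same length, and an E-box match in 66.2%. The Gjb2 window was 69.2% G or C, more than 89.6% of windows, with 18 CG dinucleotides and 2 GC box matches, 1 on each strand, and an E-box match from 9 to 4 bases before the start. The Gja4 window was 61.2% G or C with 9 CG dinucleotides and 1 GC box match. A GC box match was present in 32.7% of windows and a TATA box match in 12.4%, and none of the 3 windows held a TATA box match. These matches describe letters and do not show binding.

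**Figure D1:**
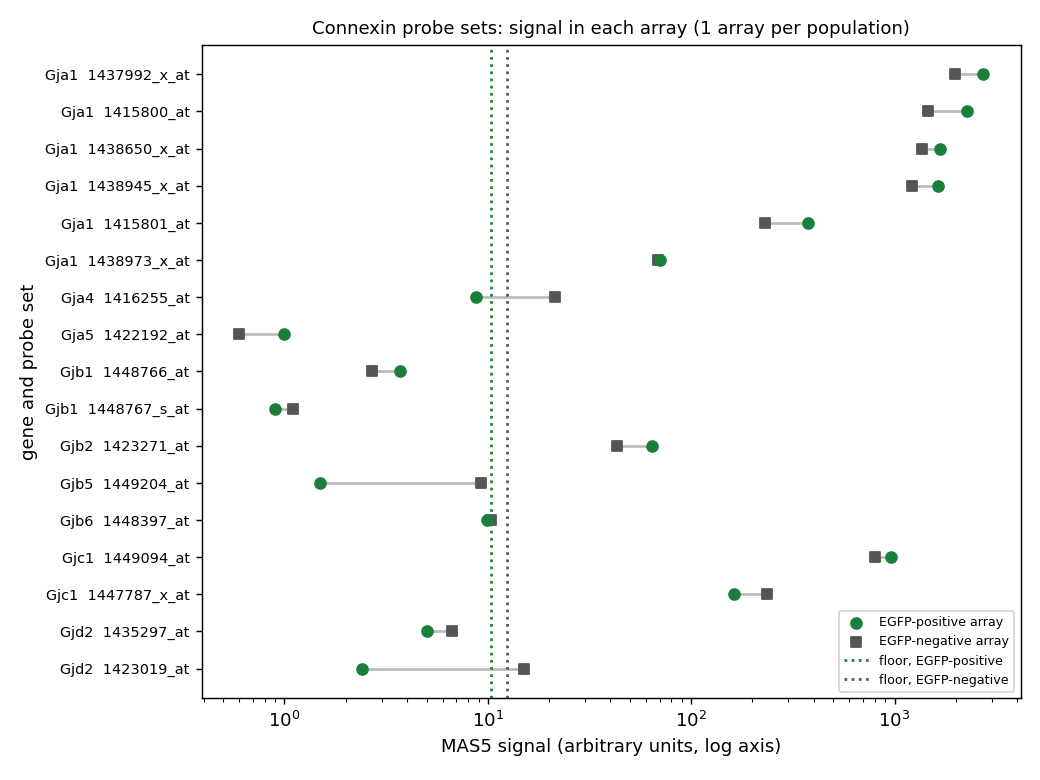
MAS5 signal (arbitrary units, log axis) of all 17 connexin probe sets in the EGFP-positive array (circles) and the EGFP-negative array (squares), with dotted lines at each array's floor, 10.4 and 12.4. The 6 probe sets of Gja1, 2 of Gjc1 and 1 of Gjb2 lie above the floor in both arrays, Gja4 and 1 probe set of Gjd2 lie above it in the EGFP-negative array alone, and the other 6 probe sets lie below it in both.

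Gja1, the gene of connexin 43, had a higher signal in positive cells by all 6 of its probe sets, on the deposited scaling. Its brightest probe set, 1437992_x_at, read 2732.7 in positive and 1986.1 in negative cells, 1.38-fold higher. Probe set 1415800_at read 2281.7 against 1461.0, 1.56-fold higher. Probe set 1415801_at, dimmer at 376.6 against 231.9, had the widest ratio, 1.62-fold. In these 3 the gap was in the same direction but stayed inside 2-fold. The remaining 3 probe sets read 1675.5 against 1368.4 (1.22-fold), 1641.3 against 1219.7 (1.35-fold) and 70.4 against 68.7 (1.02-fold). The last of these, 1438973_x_at, was almost equal in both libraries. The mean log2 ratio was 0.43 ± 0.24 (SD over the 6 probe sets), a spread between probes of 1 pair of RNA samples and not between embryos. The ending _x_at, which 4 of the 6 carry, denotes probes that can match other sequences as well.

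The size of the Gja1 difference can be set beside that of other genes. The log2 ratio of its brightest probe set, 0.46, was higher than that of 88.5% of the 13087 genes and of 92.0% of the 4472 genes with a mean signal above 200. Between probe sets of 1 gene the log2 ratio had an SD of 0.31 over 5640 genes, and 0.25 over the 1926 genes with mean signals of 200 or more. By its brightest probe set the Gja1 ratio was therefore less than 2 such SDs from 0. The 2 Gja1 probe sets without the _x_at ending had its largest ratios, 0.64 and 0.70, each more than 2 such SDs from 0. These SDs do not measure the spread between arrays or embryos. Among 15 markers of otic epithelium, such as the adhesion genes Epcam (1609.9 against 538.6) and Cdh1 (777.5 against 315.4), 13 had a higher ratio than Gja1. The list median was 1.30. The 2 with a lower ratio were Oc90 (939.8 against 1405.7) and Dlx5 (367.6 against 322.2). Another probe set of Epcam was at 0.50. Among 17 markers of periotic mesenchyme, the connective tissue around the otocyst, none had a higher ratio than the brightest Gja1 probe set. The list median was -3.12. Only 1 of the 17, Dcn (41.9 against 30.7), had a ratio above 0. At 0.45 it was close to that Gja1 probe set and above the mean of 0.43 over the Gja1 probe sets. The brightest mesenchyme marker in negative cells was Col3a1, a fibrillar collagen gene, at 135.5 against 2733. With ratios counted from the median of the otic epithelium genes, Gja1 was at -0.84, on the negative-cell side.

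Gjc1, the gene of connexin 45, had clear signals in both libraries, but its 2 probe sets went opposite ways. The brighter, 1449094_at, read 965.6 in positive and 799.2 in negative cells, 1.21-fold higher in positive cells. The dimmer, 1447787_x_at, read 162.2 against 237.1, 1.46-fold higher in negative cells. Its _x_at ending denotes probes that can match other sequences as well, and the brighter probe set does not carry it. The log2 ratios were 0.27 and -0.55, with a mean of -0.14 ± 0.58 (SD, 2 probe sets), so the direction of Gjc1 is not settled by these arrays. The spread between these 2 probe sets was wider than the SD of 0.31 between probe sets of 1 gene.

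**Figure D2:**
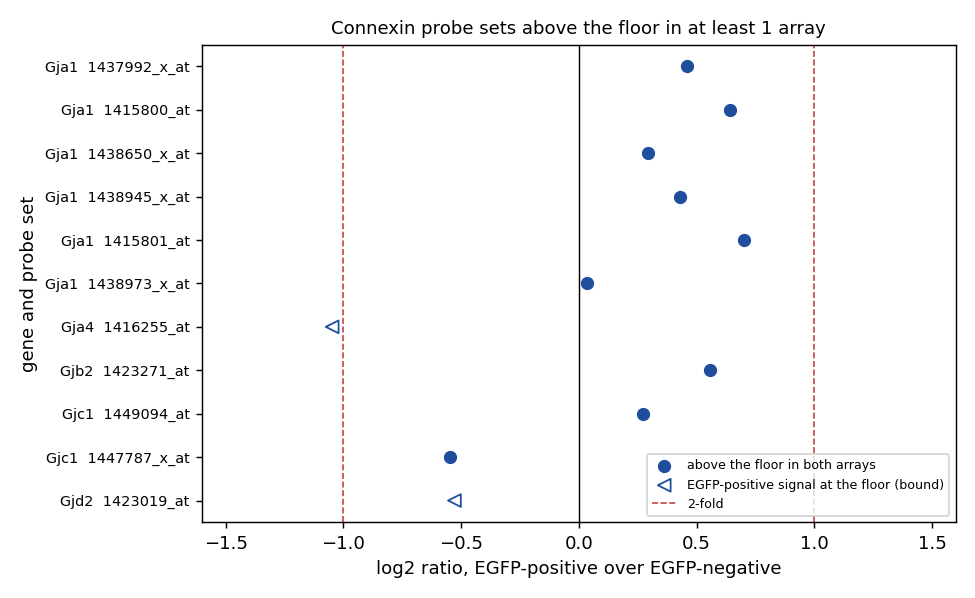
Log2 ratio of signal, EGFP-positive over EGFP-negative, for the 11 connexin probe sets with a ratio; filled circles are above the floor in both arrays and open triangles are bounds with the positive-cell signal at the floor, and dashed lines mark 2-fold. All 6 Gja1 probe sets and Gjb2 lie between 0.04 and 0.70, the 2 Gjc1 probe sets lie on opposite sides of 0, and Gja4 alone lies past a 2-fold line, at -1.05, all on the deposited scaling; counted from the otic epithelium median, Gja1 and Gjb2 turn to -0.84 and -0.74.

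The connexin genes of the mature cochlear network differed in whether they were detected. Gjb2, the gene of connexin 26, was read by 1 probe set, at 63.9 in positive and 43.4 in negative cells. Both signals were above the floor and above the highest bacterial control, and that of positive cells was 1.47-fold higher, a log2 ratio of 0.56. In the signal range of 50 to 200 the SD between probe sets of 1 gene was 0.33, so the Gjb2 ratio was less than 2 SDs from 0. That SD does not measure the spread between arrays or embryos, which 1 array per population cannot give. The Gjb2 ratio was higher than that of 91.3% of genes. Of the 15 otic epithelium markers, 12 had a higher ratio still, so that counted from their median Gjb2 was at -0.74. Gjb6, the gene of connexin 30, read 9.9 in positive and 10.4 in negative cells. Both values were below the floor, and that of positive cells was also below the highest bacterial control, so no ratio was formed. Gjb2 and Gjb6 are adjacent protein-coding genes in the RefSeq annotation of GRCm38.p6. Gja3, the lens connexin gene on the other side of Gjb2, was below the floor by both of its probe sets, at 1.6 and 2.9 in positive and 1.1 and 2.7 in negative cells. Of these 3 neighbouring genes, only Gjb2 had a signal above the floor.

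Of the 2 vascular connexin genes, Gja4 had a signal in negative cells and Gja5 had none in either library. Gja4, the gene of connexin 37, read 8.7 in positive and 21.5 in negative cells by its single probe set. The positive-cell value lay below both the floor and the highest bacterial control. With it raised to the floor, Gja4 was at least 2.07-fold higher in negative cells. This bound was under 2-fold with the highest bacterial control as the floor (log2 ratio -0.81), after quantile normalization (-0.81) and with 16 added to each signal in place of a floor (-0.60), and with a floor at the 60th percentile both signals were below it. Gja5, the gene of connexin 40, read 1.0 and 0.6.

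Endothelial markers were higher in the same library as Gja4, as were most markers of mesenchyme, erythroid cells, leukocytes and hindbrain. Of 15 endothelial genes, 13 were at least 2-fold higher in negative cells and none in positive cells, with a median log2 ratio of -1.75. The count of 13 fell to 4 with a floor at the 60th percentile. The summed signal of the 15 genes was 151.0 in positive and 886.0 in negative cells. Of the 15, 10 were below the floor in positive cells, among them Cdh5 (1.3 against 47.8), Cldn5 (2.2 against 135.7), Pecam1 (0.8 against 34.1) and Emcn (8.7 against 121.8). The other 5 were above it in both libraries, namely Egfl7 (50.3 against 93.1), Tek (26.0 against 67.6), Kdr (17.5 against 85.4), Esam (13.0 against 65.9) and Vwf (12.2 against 18.3), the last below the highest bacterial control in positive cells. No marker of the list was at 0 in either library. Over all genes only 2 were at 0 in each, so a value above 0 does not show presence. Of 8 genes of mural cells and smooth muscle, 6 had a ratio and 3 were at least 2-fold higher in negative cells, led by Pdgfrb (56.1 against 615.8), whereas Rgs5 (49.2 against 19.4) was at least 2-fold higher in positive cells by its brightest probe set and at a log2 ratio of 0.20 by the lowest of its 3 probe sets with a ratio. The part of endothelial, mural or other cells in the Gja4 signal was not tested. In sorted pools, fewer cells of a type and less RNA per cell cannot be told apart.

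Gjd2, the gene of the neuronal connexin 36, was close to the floor. Probe set 1423019_at read 2.4 in positive and 15.0 in negative cells, which makes it at least 1.44-fold higher in negative cells with the lower value raised to the floor. Probe set 1435297_at read 5.0 and 6.7, below the floor in both libraries. Neuronal markers were present in both libraries, with a summed signal of 4110.2 in positive and 4818.1 in negative cells over 14 genes. Of these, 2 were at least 2-fold higher in positive cells, the early sensory neuron genes Neurog1 (216.7 against 98.7) and Pou4f1 (136.5 against 60.9). By their other probe sets Neurog1 and Pou4f1 were within 2-fold, at log2 ratios of 0.46 and 0.62. Neurod1 (1432.4 against 723.9) was just within 2-fold, at a log2 ratio of 0.98, and past it by its other probe set, at 1.44. Another 4 were at least 2-fold higher in negative cells, the neurofilament genes Nefl (191.9 against 720.9) and Nefm (361.0 against 925.0), the growth cone gene Gap43 (113.6 against 396.5) and the peripheral neuron filament gene Prph (1.7 against 27.3). Their part in the Gjd2 signal was not tested.

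The remaining members of the group, Gjb1 and Gjb5, were below the floor in both libraries. Gjb1 read 3.7 against 2.7 by 1 probe set and 0.9 against 1.1 by the other, positive cells first. Gjb5 read 1.5 in positive and 9.3 in negative cells, and the latter value was just above the highest bacterial control of that array, 9.0. Among 9 genes of surface ectoderm and skin, tissue in which Gjb5 is known, 2 were at least 2-fold higher in negative cells, Krt15 (0.6 against 47.4) and Tfap2c (6.2 against 24.5). That count was 0 with a floor at the 60th percentile and 1 with the highest bacterial control as the floor. None was at least 2-fold higher in positive cells by its brightest probe set. Wnt6 read 147.6 against 92.0, and its other probe set was at a log2 ratio of 1.45.

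Other genes of the gap junction family added 1 detected gene. Of 11 further connexin genes listed, 5 were named by a probe set, and all 5 (Gja3, Gja10, Gjc3, Gjd4 and Gje1) were below the floor in both libraries, with signals of at most 6.2 in positive and 9.6 in negative cells. The other 6 were not analysed here. Pannexins form ATP-releasing membrane channels with a similar topology but an unrelated sequence. Panx1 read 206.6 in positive and 140.4 in negative cells, 1.47-fold higher. Panx2 read 9.1 and 10.3, and all 3 probe sets of Panx3 were at 4.2 or below.

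Genes for proteins that bind connexins at the junction were read as well. Over all genes with a ratio, 10.8% were past 2-fold in either direction. Of 11 listed scaffold and junction partners, 9 had a ratio, 2 were at least 2-fold higher in positive cells, 1 in negative cells and 6 were within 2-fold, with a median log2 ratio of 0.17. Tjp1, which encodes ZO-1, the main scaffold at the tail of connexin 43, read 811.9 and 784.3. The tight junction genes Ocln (occludin, 274.9 against 81.7) and Tjp3 (ZO-3, 54.6 against 22.0) were 3.36-fold and 2.48-fold higher in positive cells. Cav1, the gene of caveolin-1, read 10.6 in positive and 61.7 in negative cells, 5.82-fold higher in the latter, with the lower value next to the floor and below the highest bacterial control. Cdh2, which encodes N-cadherin, read 1194.3 and 899.7, 1.33-fold higher in positive cells.

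Genes for the handling of connexin proteins were within 2-fold with few exceptions. All 10 genes of trafficking and turnover had signals above the floor in both libraries and none differed by 2-fold, with a median log2 ratio of 0.07 and a range from -0.82 to 0.49. They included Nedd4, a ubiquitin ligase that binds connexin 43 (3155.4 and 2911.5), and Cnst, a connexin trafficking receptor (120.3 and 117.0). Of 10 kinase genes, 8 had a ratio and 7 were within 2-fold, with a median of 0.09. The exception was Prkca, the gene of protein kinase C alpha, at 13.6 in positive and 28.7 in negative cells, 2.11-fold higher in the latter, with log2 ratios of -1.08 and -1.06 by its 2 probe sets. Src, whose product phosphorylates connexin 43, read 84.4 and 74.3, and Csnk1d read 1291.2 and 1235.5.

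In the developing cochlea, ATP released through connexin hemichannels acts on purinergic receptors, and the inositol trisphosphate that follows passes between cells. Of 20 listed genes of this signalling, 15 had a ratio, none was at least 2-fold higher in positive cells, 3 were in negative cells and 12 were within 2-fold, with a median log2 ratio of -0.29. The 3 were the receptor gene P2ry6 (1.3 against 64.2), the ATP-degrading enzyme gene Entpd1 (5.7 against 22.3) and the phospholipase gene Plcb1 (13.7 against 41.0), though another probe set of Plcb1 was at 0.14. Of the other P2Y receptors listed, P2ry2 was below the floor in both libraries (2.4 and 1.0), P2ry1 likewise (0.5 and 10.1), and P2ry4 was just above it in negative cells (10.2 and 14.1). Among the inositol trisphosphate receptors, Itpr3 read 27.2 and 45.1 and Itpr2 12.4 and 14.6. Leukocyte markers, all 12 of them at least 2-fold higher in negative cells with summed signals of 83.9 and 1446.5, were high in the same library as P2ry6 and Entpd1. Of the 12, 8 were below the floor in positive cells. With a floor at the 60th percentile, 7 leukocyte markers were at least 2-fold higher in negative cells. The part of leukocytes in the P2ry6 and Entpd1 signals was not tested.

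**Figure D3:**
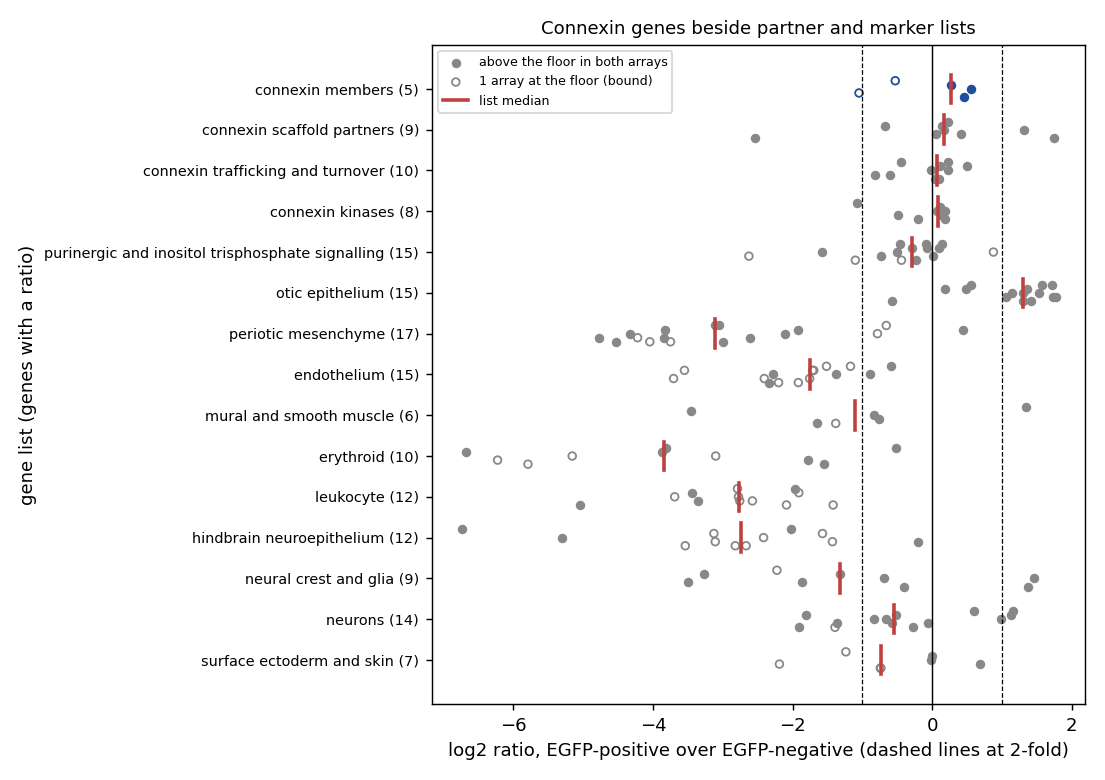
Log2 ratio of signal, EGFP-positive over EGFP-negative, for each gene with a ratio in the connexin group (blue) and in lists of partner and marker genes (grey), by brightest probe set; open circles have 1 array at the floor, red bars are list medians and dashed lines mark 2-fold. The connexin median of 0.27 lies near those of the scaffold, turnover and kinase lists (0.17, 0.07 and 0.09), below that of otic epithelium (1.30) and above that of periotic mesenchyme (-3.12). It is the ratio of the brighter Gjc1 probe set, and was -0.14 with the median over probe sets.

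Markers of other cell types differed between the libraries. Of 15 otic epithelium markers, 11 were at least 2-fold higher in positive cells and none in negative cells. The other 4 were within 2-fold. Oc90 was higher in negative cells (939.8 against 1405.7), and Dlx5, Sox9 and Tbx1 had log2 ratios of 0.19, 0.48 and 0.56. All 15 were above the floor in both libraries, with summed signals of 11740.4 and 5866.0. Of the other lists, 14 of 17 mesenchyme genes, 9 of 10 erythroid genes and 11 of 12 hindbrain genes were at least 2-fold higher in negative cells. Their summed signals were 690.0 against 7316.4, 3625.9 against 22210.3 and 136.2 against 2912.1, positive cells first. In positive cells 5 of the mesenchyme, 4 of the erythroid and 8 of the hindbrain genes were below the floor. With a floor at the 60th percentile the hindbrain count was 7, and the mesenchyme and erythroid counts stayed at 14 and 9. Of 9 neural crest and glial genes, 5 were at least 2-fold higher in negative cells, such as Ednrb (32.7 against 368.3), and 2 in positive cells, Erbb3 (1405 against 511.1) and Kit (266.6 against 103.3). The labels call both populations epithelial, and how much of the Gja1, Gjc1 and Gjb2 signal of the negative library came from other cell types was not tested.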

How the data were processed

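The data are 1 EGFP-positive and 1 EGFP-negative array. The deposited table gives intensities for 45101 probe sets on a linear scale, computed by the authors with MAS5 (5.0), per the submitters' processing notes. The mean after trimming 2% at each end was 100.0 in both arrays. Detection calls and a genome build are not given in the sources used here. Median signals were 17.6 (EGFP-positive) and 20.6 (EGFP-negative), and the number of arrays limits the precision.

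Names came from the platform annotation, with symbols updated by gene identifier from RefSeq (GRCm38.p6). Of all probe sets, 34958 named 1 gene, 932 several and 9211 were unnamed here. Signals were raised to the floor before the log2 ratio. Genes below the floor in both arrays got none, nor did 276 genes whose bound had no size because the floors differ. A gene was represented by its probe set of highest mean signal. Counts use a 2-fold limit (log2 of 1). All connexin probe sets are given; of the other lists, genes past 2-fold were named, at most 4 per direction, and some bright or key members were chosen after their values were seen. Members and lists were chosen with earlier results of these data known. The calculation was tested on simulated data. Python 3.11.15, pandas 2.3.3 and numpy 2.4.6 were used.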

Additional observations from a re-analysis of the deposited data

How the results depend on the processing

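The results were recomputed under 7 alternatives to the floor, the scaling and the choice of probe set. A value was taken as moved when it changed by more than 0.31, the SD between the log2 ratios of a gene's probe sets, and a count when it changed by over 1.5 times. The count of no connexin gene at least 2-fold higher in positive cells was the same in all 7. Gja1 and Gjb2 kept ratios above 0 in 6 of them, from 0.21 to 0.46 and from 0.31 to 0.68.

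Centring on the otic epithelium genes put the median of all genes at -1.29. It gave Gja1 -0.84, Gjb2 -0.74, Gjc1 -1.03, Gjd2 -1.83, Gja4 -2.35 and a connexin median of -1.03, with 3 connexin genes at least 2-fold higher in negative cells. Over all genes it gave 22 higher in positive and 10558 in negative cells, against 388 and 1019 as reported. Partner and signalling genes were then 0 and 37, against 2 and 5, and markers of other cell types higher in positive cells 0, against 5. Centring on 12 hybridisation controls moved the median of all genes to -0.24 and gave 225 genes higher in positive cells and 3 such markers.

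With the floor at the 60th percentile 3 connexin genes had a ratio and 0 were past 2-fold, all genes past 2-fold numbered 237 and 478, and partner and signalling genes 1 and 0. With no floor and 16 added to each signal, all 9 had a ratio, Gja4 was at -0.60, 0 were past 2-fold, and the counts were 238 and 647 for all genes, 1 and 2 for partner and signalling genes and 3 for such markers. The connexin count in negative cells was also 0 with the highest bacterial control as the floor and after quantile normalization, which left 3 partner and signalling genes higher there. Taking the median over probe sets moved Gjc1 and the connexin median to -0.14. Why each value moved was not tested. No paired analysis was possible because each population has 1 array. Signals near the floor, those of Gja4, Gjd2, Gjb5 and Gjb6, limit what can be said of these genes.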
